A study of Mus musculus with 6 samples.

Results

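Acyl-CoA thioesterases cut an acyl-CoA into a free fatty acid and coenzyme A, and so run opposite to the acyl-CoA synthetases that activate fatty acids. The family holds 10 genes here, Acot1, Acot2, Acot3, Acot4, Acot5, Acot6, Acot8, Acot9, Acot12 and Acot13, taken as every gene among 24239 on the array whose symbol was one of these names. They were read by 14 of the 55681 probes that are not controls, and their expression was compared between the livers of control mice and mice given trichloroethylene (TCE), a chlorinated solvent.

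Background knowledge divides the family in 2 ways. Type I enzymes (Acot1 to Acot6) are closely related to each other and lie side by side in a gene cluster, whereas type II enzymes (Acot8, Acot9, Acot12 and Acot13) are built on another protein fold, the hotdog domain. By place in the cell, Acot1 and Acot12 are cytosolic, Acot2, Acot9 and Acot13 are assigned to mitochondria, and Acot3, Acot4, Acot5, Acot6 and Acot8 are peroxisomal. Acot13 has also been found in the cytosol. In rodent liver several type I genes are textbook targets of PPARalpha, a nuclear receptor that senses fatty acids and is activated by peroxisome proliferators.

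The animals were male B6C3F1 mice, a hybrid strain used in toxicity studies, 7 weeks of age by the labels. The control group (n = 3) received corn oil, and the TCE group (n = 3) received TCE in corn oil at 1000 mg/kg body weight, by gavage once a day for 5 days. No allele or other agent was given in the labels, and each liver was hybridised to its own 1-colour Agilent array. Since bulk liver was measured, fewer cells of a type and less RNA per cell cannot be told apart.

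Signals are given as log2 of the quantile-normalized processed signal, where a difference of 1 is a 2-fold change. A probe was tested if it was well above background in all 3 mice of at least 1 group, and a gene was represented by its brightest tested probe. A gene was called higher or lower at an adjusted p of 0.05 or less by limma, Benjamini-Hochberg adjusted over all 22731 tested probes, together with a change of at least 2-fold. The arrays had 23537 to 24965 probes well above background and no saturated spots (0 on each array). Control mouse 1 was alone on 1 slide and scan, while the other 5 mice shared a second slide and scan, so values within that slide are those without control mouse 1. All 8 hepatocyte markers were detected in every mouse and 0 were called by limma, with a median log2 change of -0.08 and 2 at an unadjusted p under 0.05. Markers of Kupffer cells, cholangiocytes, stellate cells, sinusoidal endothelial cells and lymphocytes gave 22 tested genes. Of these 0 were called by limma, beside 1.73% of all tested genes, and 2 had an unadjusted p under 0.05. Their median changes lay between -0.22 and -0.08, and the stellate cell marker Lrat, named after its values were seen, had a log2 difference of -1.35 (limma adjusted p = 0.0676). Adipocyte and striated muscle markers had 0 tested genes.

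The probes of the type I genes are shown because these 6 genes are close relatives, and a signal of 1 could in principle be a signal of another. For each probe the first 30 of 60 bases are given 5′ to 3′ from the array design, with positions on mm9 (+ strand). Capitals mark the longest run in that stretch that also occurs in a probe of another of the 10 genes.
Acot2, chr12:85334071-85334130: ggggaaacctcATATATATtatcacaatgt
Acot1, chr12:85358561-85358620: tctatggaaactggagctATCCAAGaaaag
Acot4, chr12:85384821-85384880: tgctggatgACATGAAattcatgtttaggg
Acot3, probe A_55_P2069907, chr12:85399468-85399527: tcatcaatggctctaTATCCAAcatcggcg
Acot3, probe A_55_P2038347, chr12:85400452-85400511: gtgtacacacacACATATacacacaagcac
Acot5, probe A_55_P2038362, chr12:85416634-85416693: ggAGAAGCCCcagattgtctgctaccccaa
Acot5, probe A_55_P2040260, chr12:85416893-85416951: cgctggtcctgttcccctgagaattAGGAT
Acot6, probe A_55_P2038372, chr12:85450667-85450726: tgtgctgatattgTAGTTCtacacggtcat
Acot6, probe A_51_P191354, chr12:85451951-85452010: caagccagtagctttcaCTTCTCTTttctc

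Over their full length the probes of the 10 genes had little in common. Each of the 14 was at least 29 edits away from the closest probe of another member, and the longest shared run was 7 to 9 bases. Acot3 probe A_55_P2038347 is built around a CA repeat and shared 16 or more bases with 6 probes of other genes, the longest being 21 bases with a probe of Slc35e2. The other 13 thioesterase probes shared no run of that length with a probe of another gene. A comparison of probe with probe does not show how far each probe binds the transcript of a relative. That was not analysed here, nor was the exon or untranslated region in which each probe lies.

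After 5 days of TCE, 4 of the 10 thioesterase genes were called higher and 0 lower. Of all 13284 tested genes, 1.30% were called higher and 0.429% lower. The 4 were Acot1, Acot2, Acot5 and Acot6, all of type I and all in the chromosome 12 cluster. Acot2 (0 of 3 controls well above background) and Acot6 (1 of 3) entered the test only through the TCE mice. With probes well above background on all 6 arrays, 2 thioesterase genes were called higher. The share of all genes called under that filter is not given here. The fitted log2 change was above 0 for all 10 genes, with a median of 1.75 beside 0.02 over all tested genes. In 9 of the 10 genes every TCE mouse lay above every control mouse, an arrangement found in 17.1% of tested genes, and the exception was Acot13. Groups that did not overlap, in either direction, were found in 27.9% of tested genes. Counted by probe, 4 of the 12 tested thioesterase probes were called higher, beside 1.03% of all tested probes, and 0 lower, beside 0.383%. In 11 of the 12 all TCE mice lay above all controls, beside 15.5%.

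**Figure D1:**
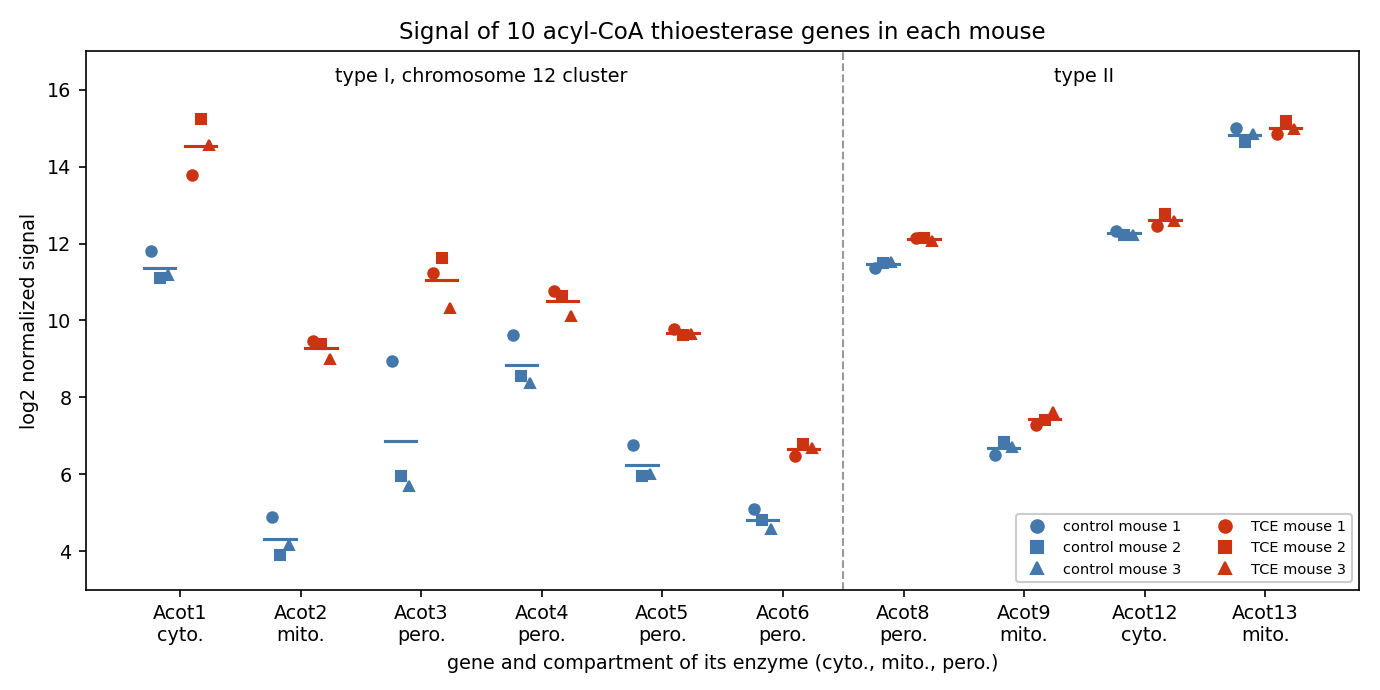
The log2 normalized signal of each thioesterase gene is plotted for each mouse, with control mice in blue, TCE mice in red and short lines at group means; a symbol shape marks the mouse number. In all 6 type I genes on the left each TCE mouse lies above each control, with control mouse 1 the highest control, and the 4 type II genes on the right move by less than 1 log2 unit.

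Acot1 encodes the cytosolic long-chain acyl-CoA thioesterase. Its log2 signals were 11.80, 11.11 and 11.17 in control mice 1 to 3, and 13.78, 15.23 and 14.55 in TCE mice 1 to 3. On the linear scale the controls ran from 2205 to 3567 signal units and the TCE mice from 14115 to 38502, so the groups were far apart, while the TCE mice also differed from each other. The mean rose from 11.36 ± 0.38 to 14.52 ± 0.72 (SD, n = 3), a log2 change of 3.16 (SE 0.39, limma adjusted p = 0.0188), or 8.97-fold. Leaving out 1 mouse at a time kept the change between 2.81 and 3.53, but the adjusted p ran from 0.0180 to 0.0887. The call was lost without control mouse 2 (0.0887), control mouse 3 (0.0811) or TCE mouse 3 (0.0582).

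Acot2 encodes the mitochondrial counterpart of Acot1. The controls read 4.88, 3.91 and 4.15, none of them well above background, and the TCE mice 9.46, 9.40 and 9.00. Acot2 thus went from below the detection level in all 3 controls to a clear signal in all 3 TCE mice. The means were 4.31 ± 0.51 and 9.29 ± 0.25 (SD, n = 3). In the main processing, the TCE signal of Acot2 was 22.7-fold above the lowest control-array signals that counted as well above background. This is no strict lower limit, since a signal not well above background can exceed that lowest signal. With normexp background correction, which adds an offset and compresses dim signals, the log2 change was 2.99, a smaller increase. The size of the increase thus depends on how the dim controls are treated, and the 22.7-fold value holds for the main processing only. The fitted change of 4.97 uses those dim values and is no exact difference. The call held without each mouse in turn, with adjusted p up to 0.0117.

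Acot5 encodes a peroxisomal enzyme known for medium-chain substrates. By probe A_55_P2038362 the controls read 6.75, 5.97 and 6.01, and the TCE mice 9.77, 9.62 and 9.65. The TCE mice lay close to each other and far above the controls. The mean rose from 6.24 ± 0.44 to 9.68 ± 0.08 (SD, n = 3), a log2 change of 3.44 (SE 0.23, limma adjusted p = 0.00210), or 10.8-fold. With normexp correction it was 2.64, still past the threshold. The second Acot5 probe, further along the same gene, did not follow. It read 4.14, 6.01 and 5.71 in controls and 5.70, 3.74 and 5.35 in TCE mice, was well above background in 2 of 3 mice of each group, and was therefore not tested. Its groups overlapped, with a difference of means of -0.36.

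Acot6 encodes a peroxisomal enzyme known for branched-chain acyl-CoAs. By probe A_51_P191354, designed on a cDNA record, the controls read 5.09, 4.80 and 4.57, of which 1 of 3 was well above background, and the TCE mice 6.47, 6.79 and 6.67. The groups were apart, although both were dim. The log2 change was 1.83 (SE 0.17, limma adjusted p = 0.00740), or 3.54-fold. With normexp correction the change was 0.85 and the 2-fold threshold was missed. The other Acot6 probe, designed on the reference transcript, stayed near background in every mouse, with 0 of 3 well above it in each group. The increase thus rests on the cDNA probe alone.

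Acot3 encodes a peroxisomal long-chain acyl-CoA thioesterase, and Acot4 a peroxisomal enzyme known for succinyl-CoA and dicarboxylic acyl-CoAs. Neither was called, though both had larger signals in every TCE mouse than in any control. Acot3 read 8.94, 5.96 and 5.70 in controls and 11.24, 11.61 and 10.32 in TCE mice by probe A_55_P2038347. Control mouse 1 stood 8.64-fold above the mean of the other controls, and was still below the lowest TCE mouse. The log2 difference was 4.19 with an SE of 0.88 (limma adjusted p = 0.0796). The second Acot3 probe, without the repeat, had the same order of mice, at 6.37, 2.77 and 2.75 in controls and 8.51, 8.94 and 7.20 in TCE mice. Only control mouse 1 was well above background among its controls, so the fitted log2 difference of 4.25 (SE 1.04, limma adjusted p = 0.112) rests in part on dim values.

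Acot4 read 9.61, 8.55 and 8.39 in controls and 10.77, 10.64 and 10.12 in TCE mice. Control mouse 1 was again the highest control, 2.21-fold above the others. The log2 difference was 1.67 (SE 0.36, limma adjusted p = 0.0830). Without control mouse 1, which also means within the shared slide, the changes were 5.23 for Acot3 (limma adjusted p = 0.0146) and 2.05 for Acot4 (limma adjusted p = 0.0368). All 6 type I genes were then called higher, against 4 with all mice. Control mouse 1 was the highest control in each of the 6, so leaving it out raises their changes by construction. The share of all genes called in this fit is not given here, so the count has no background beside it. In the same fit Acot8, of type II, had a limma adjusted p of 0.126, against 0.0413 with all mice. Slide, scan and mouse cannot be told apart for this control.

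Control mouse 1 was the highest control in 6 of 6 type I genes and in 2 of 4 type II genes, beside 34.5% of all tested genes. Its log2 signal exceeded the mean of the other controls by a median of 0.81 in the type I genes and 0.006 in all genes. It was the highest control in 11 of 16 tested PPARalpha targets as well (68.8%), with a median excess of 0.17. An excess of at least 2-fold was seen in 2 of the 10 thioesterases (Acot3 and Acot4), in 0 of the 16 targets, and in 0.971% of all genes.

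The type II genes had smaller fitted changes. Acot8, the peroxisomal enzyme of broad substrate range, was read by 2 probes on chromosome 2. The brighter had signals of 11.36, 11.50 and 11.51 in controls and 12.14, 12.14 and 12.06 in TCE mice, with narrow groups that did not overlap. Its log2 change was 0.66 (SE 0.11, limma adjusted p = 0.0413), or 1.58-fold. The second probe gave 0.79 (SE 0.13, limma adjusted p = 0.0415), or 1.73-fold. Both passed the adjusted p and missed the 2-fold threshold, so Acot8 was not among the calls. By the adjusted p alone 5 of 10 thioesterases were higher, beside 1.80% of all genes.

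Acot9, a mitochondrial enzyme whose gene lies on chromosome X, read 6.50, 6.84 and 6.71 in controls and 7.27, 7.41 and 7.61 in TCE mice. The log2 difference was 0.74 (SE 0.15, limma adjusted p = 0.0686). Acot12, a cytosolic enzyme known for acetyl-CoA, read 12.33, 12.23 and 12.22 in controls and 12.46, 12.78 and 12.57 in TCE mice. Its groups were apart by little, and the log2 difference was 0.34 (SE 0.13, limma adjusted p = 0.239). Acot13 read 15.00, 14.65 and 14.84 in controls and 14.84, 15.18 and 14.98 in TCE mice. It was the member whose groups overlapped, with a log2 difference of 0.17 (SE 0.15, limma adjusted p = 0.602). A missed threshold does not show that these 3 genes did not differ.

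**Figure D2:**
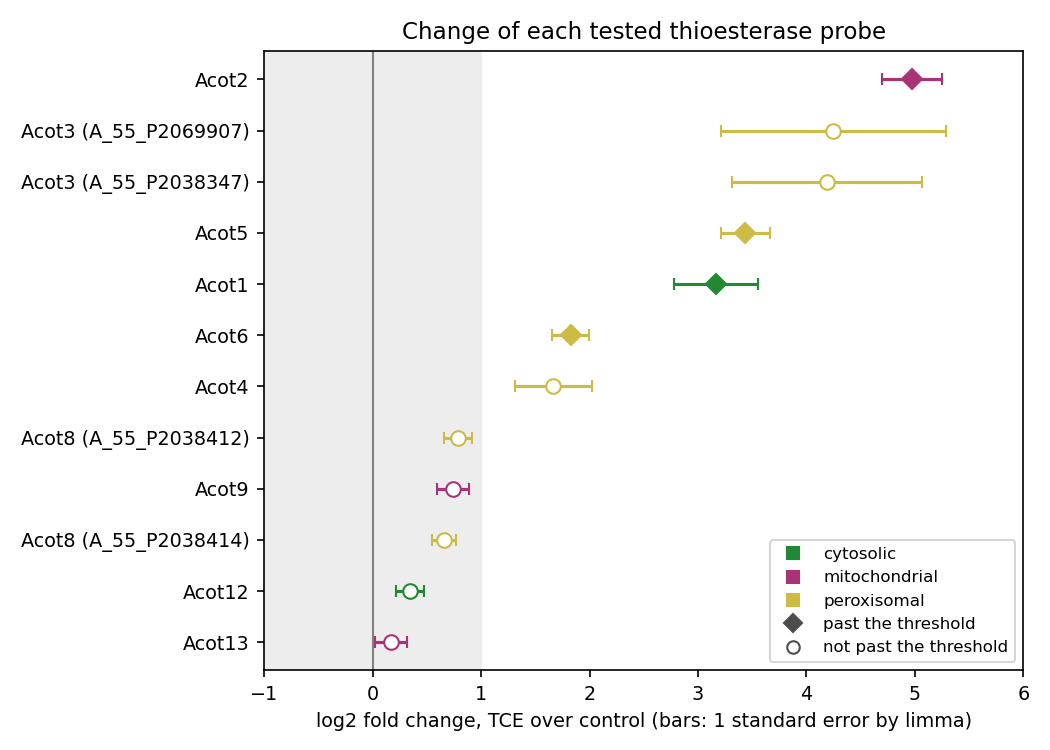
The log2 change of each of the 12 tested thioesterase probes (TCE over control) is plotted with a bar of 1 standard error by limma, coloured by the compartment of the enzyme; filled diamonds passed the threshold and the grey band marks changes under 2-fold. Acot2, Acot5, Acot1 and Acot6 are filled, the widest bars are those of the 2 Acot3 probes, and all type II probes lie within the band.

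Sorted by compartment, the calls did not gather in 1 place. They were 1 of 2 cytosolic genes (Acot1), 1 of 3 mitochondrial genes (Acot2) and 2 of 5 peroxisomal genes (Acot5 and Acot6). The median log2 changes were 1.75, 0.74 and 1.83, and the fitted changes ran from 0.34 to 3.16 in the cytosol, from 0.17 to 4.97 in mitochondria and from 0.66 to 4.19 in peroxisomes. Sorted by class, 4 of 6 type I genes and 0 of 4 type II genes were called, with medians of 3.30 (1.67 to 4.97) and 0.50 (0.17 to 0.74). The 2 ranges did not meet, though the upper end of type I uses the dim Acot2 controls. With normexp the lowest type I change was 0.85 (Acot6) and the highest type II change was 0.68 (Acot8).

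Differences in change between members were then taken within each mouse and compared between the groups by an exact permutation test, two-sided, over 20 splits. For 3 against 3 mice the smallest p is 0.1, so no pair could pass 0.05, and the smallest value adjusted over the 45 pairs was 0.125. In 36 of the 45 pairs the within-mouse differences of the groups did not overlap, beside 28.3% of all pairs of tested genes, and with normexp this held for 31. Among the 24 pairs of a type I with a type II gene this held for 22, and the exceptions were Acot4 with Acot8 and Acot4 with Acot9. With normexp it held for 20. Pairs with Acot2 or Acot6 rest in part on dim controls, and these 2 genes entered the test only through the TCE mice. The pairs also reuse the same genes and are not independent, so the counts are descriptions only.

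Within compartments the values were as follows. In the cytosol the change of Acot1 exceeded that of Acot12 by 2.82 log2 units. In mitochondria no exact difference is given, since the Acot2 controls were dim, and with normexp the log2 changes were 2.99 for Acot2, 0.50 for Acot9 and 0.19 for Acot13. In peroxisomes Acot3, Acot5 and Acot6 exceeded Acot8 by 3.53, 2.78 and 1.17, each with groups apart and an exact permutation p of 0.1. For Acot6 and Acot8 the difference was 0.17 with normexp, and the groups overlapped. Acot4 exceeded Acot8 by 1.01, with overlapping groups (exact permutation p = 0.2).

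Among the type I genes, Acot1 minus Acot5 was -0.27, with overlapping groups (exact permutation p = 0.7), and 0.50 with normexp, so the order of these 2 genes turned with the background correction. Within peroxisomes, the change of Acot4 minus that of Acot5 was -1.77 and that of Acot5 minus that of Acot6 was 1.61, both with groups apart. Acot4 minus Acot6 was -0.16 (exact permutation p = 0.7) and 0.64 with normexp. The order of Acot2 among them is not settled, since its fitted change lay above that of Acot1 and its normexp change of 2.99 below that of Acot1, 3.14. For Acot3 with Acot1, Acot5 and Acot6 the groups overlapped. With normexp Acot3 minus Acot6 was 2.63, with groups apart (exact permutation p = 0.1).

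The tested type I probes spread over 117.94 kb of chromosome 12 in the order Acot2, Acot1, Acot4, Acot3, Acot5 and Acot6. Along this order the fitted log2 changes were 4.97, 3.16, 1.67, 4.19, 3.44 and 1.83, and did not fall or rise steadily. Within the cluster and 100 kb on either side lay 13 probes of other genes or transcripts. Of the 3 that were tested 0 were called, beside 1.03% of all tested probes called higher and 0.383% lower. Their changes lay between -0.16 and 0.43, and the 2 probes inside the cluster were too dim to test.

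**Figure D3:**
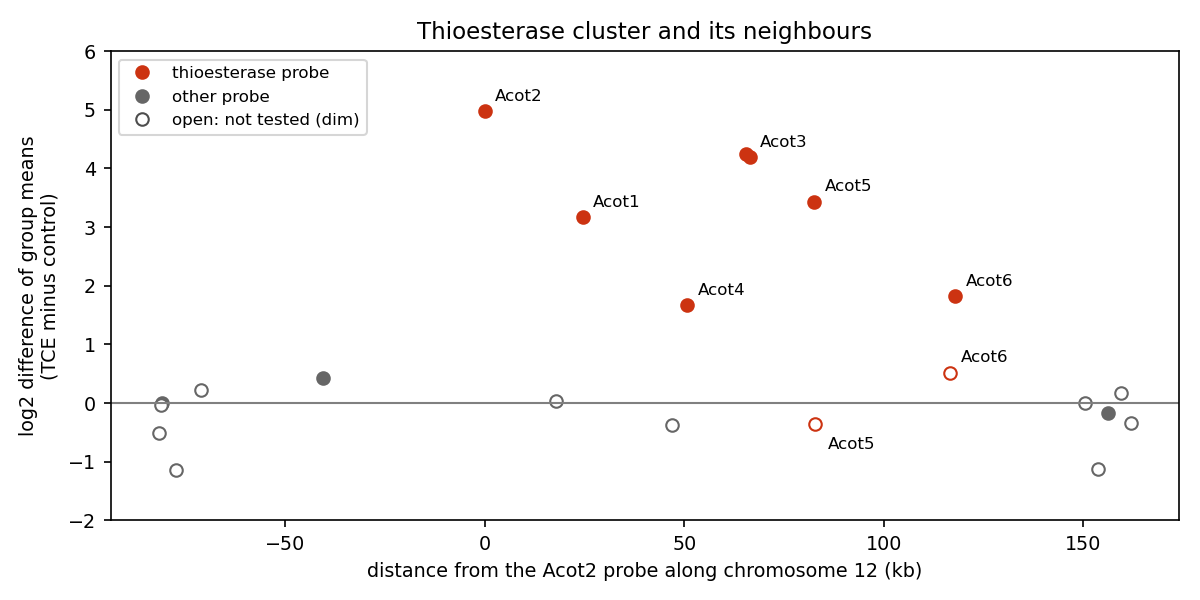
The difference of group means (log2, TCE minus control) is plotted against distance from the Acot2 probe along chromosome 12 in kb, for thioesterase probes (red) and other probes (grey) of the cluster and its flanks; open symbols were too dim to test. The 7 tested thioesterase probes lie between 1.67 and 4.97, and the 3 tested neighbours between -0.16 and 0.43.

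PPARalpha binds DNA with the receptor RXR at a direct repeat of AGGTCA with 1 base between the copies. Promoters from 250 bases before to 50 after the transcript start were read from RefSeq on GRCm38.p6. Of the 10 genes 8 matched, all but Acot6 and Acot13. The promoters are described here since 4 of the 6 type I genes were called higher. Some genes had more than 1 start, which gave 10 promoters for the 8 genes. Neither AGGTCANAGGTCA nor the looser AGGNCANAGGNCA, each searched on both strands, was present in a promoter of these 8 genes (0 of 8), beside 0.0396% and 0.381% of all 32851 promoters. A lone AGGTCA on either strand, which the repeat contains, was present in 4 of the 8 genes, beside 16.3% of all promoters. The 4 were Acot3, Acot4, Acot5 and Acot12, and the called genes Acot1 and Acot2 had none. Members were counted by gene, some with more than 1 promoter, and the background by promoter, so these shares are not like for like. The stretches that lie wholly upstream of the start are given with the motif, read here as TGACCT on the gene's strand, in capitals.
Acot4, chr12:84038354-84038378 (GRCm38.p6, + strand): agccccgaagcaTGACCTttggccg
Acot5, chr12:84069088-84069117 (GRCm38.p6, + strand): atttcacctgggTGACCTgactcctcatgc
Acot12, chr13:91741399-91741428 (GRCm38.p6, + strand): ctcgtaggacccTGACCTctcacctcctaa
The printed motif stood 13 bases before the start in Acot4, of which the difference missed the threshold, and 110 bases before it in Acot12, which was not called. In Acot5, which was called, it stood 224 or 225 bases before, depending on the start. Another Acot5 match, on the other strand, ran across the start and is not printed. A match in this window, or its absence, is a description of the letters only. The repeats were rare over all promoters, so 0 of 8 was likely in advance, and sites outside the window were not searched.

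Genes around the thioesterases were counted from lists of acyl-CoA metabolism. Of 16 tested classical PPARalpha targets, a list that leaves out the thioesterases, 12 were called higher, beside 1.30% of all tested genes. The median log2 change of the 16 was 2.46. The largest changes were those of the fatty acid omega-hydroxylases Cyp4a14 (5.42, limma adjusted p = 0.00109), Cyp4a31 (4.18), Cyp4a10 (4.02) and Cyp4a32 (3.90). The median of the type I thioesterases alone, 3.30, was above that of the targets, and the median of all 10 thioesterases, 1.75, was below it. Whether the lists differ was not tested.

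Of 20 peroxisomal beta-oxidation genes, with a median of 0.59, 4 were called higher, beside 1.30% of all tested genes. They were Ehhadh, the bifunctional enzyme, at 3.26 (limma adjusted p = 7.66e-04), the thiolase Acaa1b at 2.00, the carnitine acetyltransferase Crat at 1.78 and Ech1 at 1.12. Crat, like the thioesterases, takes acyl groups off coenzyme A, and moves them to carnitine. Of 21 mitochondrial beta-oxidation genes, with a median of 0.51, 4 were called higher, beside the same 1.30%. They were Cpt1b, an outer membrane carnitine palmitoyltransferase, at 2.34, Eci1 at 1.16, the carnitine-acylcarnitine carrier Slc25a20 at 1.05 and Decr1 at 1.02. Leaving out any 1 mouse but TCE mouse 3 brought the counts down to 2 for peroxisomes and to 1 or 2 for mitochondria.

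The acyl-CoA synthetases catalyse the reaction opposite to that of the thioesterases. Of 18 tested synthetases 0 were called higher, beside 1.30% of all tested genes, and 1 was called lower, beside 0.429%. The median log2 change was 0.24, beside 0.02 over all tested genes, and 12 of the 18 had a change above 0. The lower gene was Acsm2, a medium-chain synthetase, whose log2 change was -1.62 (limma adjusted p = 0.0359). It was no longer called when any mouse but TCE mouse 1 was left out. The largest difference upward was that of Acss3, 1.83 (limma adjusted p = 0.0664). Acsl5, a long-chain synthetase named after its values were seen, had a log2 change of 0.70 (limma adjusted p = 0.0306) and, like Acot8, missed only the 2-fold threshold. Of 13 genes of coenzyme A synthesis and breakdown 1 was called higher, beside 1.30% of all tested genes. It was Vnn1, the pantetheinase that recycles pantothenate, at 3.33 (limma adjusted p = 0.00544). Ppcs, of the synthesis pathway, had a log2 difference of 0.73 (limma adjusted p = 0.0804).

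**Figure D4:**
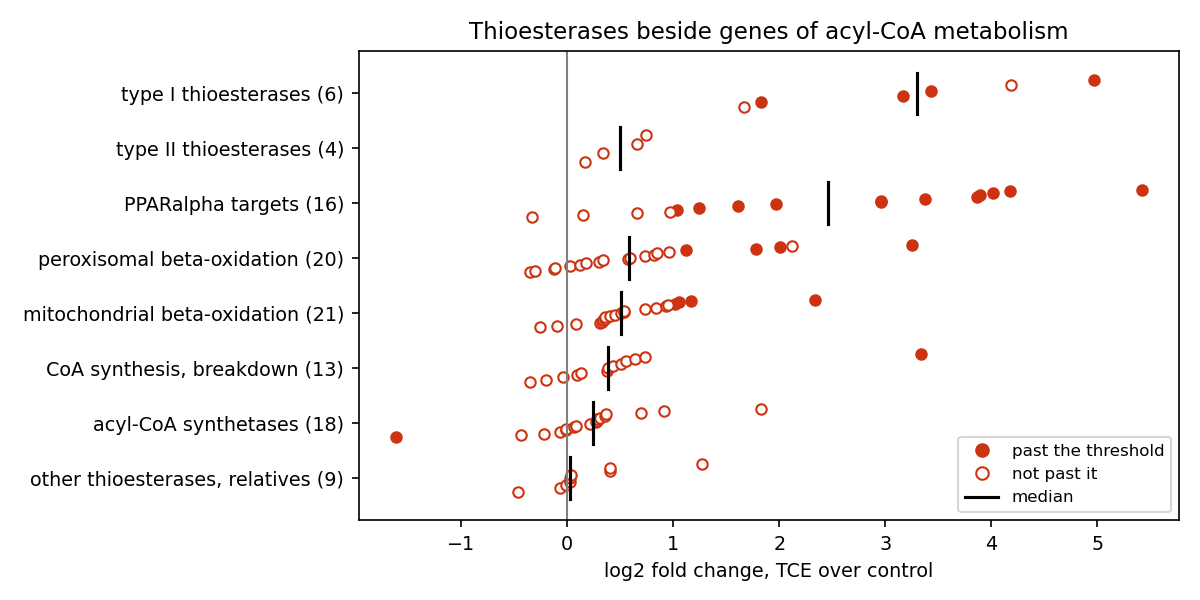
Each point is 1 tested gene and its log2 change (TCE over control), in rows by list with the number tested in brackets; filled points passed the threshold and black lines are medians. Type I thioesterases have a median of 3.30 and PPARalpha targets of 2.46, and the other rows have medians from 0.02 to 0.59.

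Thioesterases and relatives outside the 10 genes gave 0 calls among 9 tested by limma, beside 1.73% of all tested genes. Their median log2 change was 0.02. At an unadjusted p under 0.05 by limma there were 3. The cytosolic thioesterase Acot7 differed by 0.04 (limma adjusted p = 0.914) and Acot11 by 0.02 (limma adjusted p = 0.963). Them4 differed by 0.41, with groups apart and a limma adjusted p of 0.179. Acot10 and Them5 were not tested, being well above background in 2 of 3 and 0 of 3 mice of each group.

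Acnat1, Acnat2 and Baat are relatives of the type I enzymes that pass the acyl group to an amino acid in place of water. The 2 probes of Acnat2 read higher in every TCE mouse than in any control, with differences of 1.27 (limma adjusted p = 0.0911) and 1.21 (limma adjusted p = 0.0646) that missed the threshold. Acnat1 differed by -0.06, and Baat, which conjugates bile acids, by -0.47 (limma adjusted p = 0.298).

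The genes most like Acot1 over the 6 mice were sought by the root mean square difference of control-centred log2 signals. The closest 5 outside the family were Fgf21 (0.32), Gm15441 (0.33), Ppp1r3g (0.35), Krt23 (0.42) and Tpx2 (0.42). Fgf21 encodes a hormone secreted by the liver, Ppp1r3g a subunit that targets protein phosphatase 1 to glycogen, Krt23 a keratin and Tpx2 a spindle protein. Within the family the closest was Acot5, at 0.50, followed by Acot6 at 1.01, Acot4 at 1.19, Acot3 at 1.20 and Acot2, with its dim controls, at 1.36. The type II genes were the farthest, from 1.78 for Acot9 to 2.15 for Acot13. Gm15441 and Tpx2 were not well above background in any control (0 of 3), so their distances from Acot1 rest in part on dim values.

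The order of the TCE mice varied from gene to gene. TCE mouse 2 was the highest in 6 of 10 members and TCE mouse 3 the lowest in 4, beside 45.0% and 39.8% of all tested genes. In Acot1 the TCE mice exceeded the control mean by 2.43, 3.87 and 3.19 log2 units, and in Acot5 by 3.53, 3.38 and 3.41. Acot1 thus varied more than Acot5 among TCE mice.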

How the data were processed

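Livers of 6 mice were measured on Agilent 8x60K mouse arrays (1 colour, Cy3). Per the file headers and the labels, the authors extracted an intensity for each spot, already background-subtracted, with Feature Extraction 10.7.1.1. The deposited table of the whole series holds the authors' group means of quantile-normalized log2 values (GeneSpring) and was used to define the members. Its columns of unnormalized intensity entered no result. From the scanner files, outlier spots were removed (123 to 189 per array), spots of a probe averaged, and log2 processed signals quantile normalized over non-control probes without a pseudocount. The resulting means came within 0.01 of the authors' for 99.99% of probes.

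Groups were compared with lmFit and eBayes of limma 3.58.1 in R 4.3.3, with group as the only term. The study's methods name a t-test, run here as an alternative, since 3 mice per group give few degrees of freedom for a single probe. The number of arrays limits the precision. The lowest log2 signal that counted as well above background was 4.54 to 5.02 by array, and dimmer values were kept in the fits. Named genes were all members, up to 4 called genes with the largest changes per list or, with fewer than 2 called, the 2 largest changes, 8 relatives, and the 5 nearest to Acot1. Members, lists and rules were chosen with earlier results of these data known. Scripts were tested on simulated data. Compartments were assigned from general knowledge. Alternatives covered scaling, background, filters, blocks, variance models, tests, probe choice and leaving out each mouse.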

Additional observations from a re-analysis of the deposited data

How the results depend on the processing

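No fold change of a member reversed its direction under any alternative run, but differences in change between members did. With normexp 5 of the 45 turned: Acot1 minus Acot2 (0.15), Acot1 minus Acot5 (0.50), Acot2 minus Acot3 (-0.49), Acot4 minus Acot6 (0.64) and Acot8 minus Acot9 (0.18). Leaving out 1 mouse, added after seeing the data, gave -0.376 to 0.0883 for Acot4 minus Acot6 (above 0 without control mouse 1 or TCE mouse 3), -0.657 to 0.142 for Acot1 minus Acot5 (above 0 without TCE mouse 1) and -0.178 to 0.0313 for Acot8 minus Acot9 (above 0 without TCE mouse 3). The count of thioesterase genes called higher (4, and 4 by probes) was 2 genes and 2 probes with no filter on dim probes, with probes well above background on all 6 arrays, and with the replicate block. After Benjamini-Hochberg adjustment of the methods' t-test it was 1 and 1. With the slide as a block, and by the methods' t-test without adjustment, 7 probes were called. Leaving out 1 mouse gave 3 to 6 genes and 3 to 7 probes, with the highest counts without control mouse 1. Acot2 and Acot6 are removed by the filter on all arrays, since their controls are dim. The replicate numbers did not pair the mice (r of 0.09, 0.007 and -0.09 for their deviations), and under the replicate block Acot1 had a limma adjusted p of 0.120 and Acot6 of 0.0865. Normexp correction lowered Acot2 to 2.99 and Acot5 to 2.64, both still called, brought Acot3 (3.48, limma adjusted p = 0.0354) and Acot4 (1.49, limma adjusted p = 0.0499) past the threshold and lost Acot6.

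Of the lists, acyl-CoA synthetases (1 called) had 0 with normexp, no filter, either block and the adjusted t-test, and 2 with the unadjusted t-test, with no fold threshold and with probe means. Without 1 mouse they had 0 to 1. Peroxisomal beta-oxidation genes (4) had 2 with no filter or the slide block, and 1 with the replicate block or the adjusted t-test, with 2 to 4 without 1 mouse. Mitochondrial beta-oxidation genes (4) had 2 with normexp or the slide block, 1 with no filter or the adjusted t-test and 0 with the replicate block, with 1 to 4 without 1 mouse. Genes of coenzyme A synthesis and breakdown (1) had 0 with no filter and with the adjusted t-test. PPARalpha targets (12) had 7 with the replicate block and 4 with the adjusted t-test. The other thioesterases (0) had 1 with the unadjusted t-test and with probe means. The causes were not tested. Of the recomputed fold changes of members, 159 kept their side of the threshold, 11 lost it and 8 gained it. The controls of Acot2, and 2 of the 3 of Acot6, were not well above background, which limits what their changes measure.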
